A study of Bos taurus with 15 samples.

Results

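The transcript content of fresh bovine oocytes, which were not vitrified, was described from 3 RNA sequencing libraries of a series of 15. The 3 libraries are all that the sample labels call fresh, and they are numbered 1 to 3 as there. Per the labels' protocols, the oocytes (Bos taurus, from the ovary) spent 22 to 24 h in maturation medium at 38.5 °C and 5% CO2, and cumulus cells, the somatic cells around the oocyte, were then taken off with hyaluronidase at 100 IU/mL. The series title calls the oocytes immature, so the stage is given in conflicting ways and is not assumed here. RNA was taken from single cells and amplified as cDNA with low-input kits before sequencing. The labels do not say whether a library held 1 oocyte or several, or whether the 3 libraries came from separate animals, so the spread between them may be partly technical. No genotype, breed or age was given.

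A growing oocyte copies and stores large amounts of mRNA, then stops transcribing. It goes through meiotic maturation, fertilization and the first cleavages on this stored maternal RNA, which is translated, masked or degraded in turn. The store therefore holds transcripts for the meiotic spindle and cell cycle, for the egg coat, for the control of mRNA itself and for the proteins that remodel the parental chromatin. The oocyte also holds far more mitochondria than a somatic cell, and its RNA includes that of the mitochondrial genome.

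Library 1 held 1601519 counts over genes, library 2 held 1644690 and library 3 held 2822837. Levels are given as FPKM, the fragments counted on a gene scaled to its length and to the library's total, which allows genes of different length to be compared. For a gene of 1 kb, 1 count was worth 0.624, 0.608 and 0.354 FPKM in libraries 1, 2 and 3. A group of 3 libraries with nothing to compare it with allows no test, so each value stands with its spread: ± gives the SD of 3 libraries, and the coefficient of variation (CV) is that SD as a percentage of the mean.

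The oocyte markers were present in every library. GDF9, a growth factor that the oocyte secretes toward its cumulus cells, was at 222, 350 and 131 FPKM in libraries 1, 2 and 3 (234 ± 110). Its partner BMP15 was at 399, 712 and 296 FPKM (469 ± 217). ZP2, a glycoprotein of the zona pellucida, the coat of the egg, was at 788, 1382 and 867 FPKM (1012 ± 323). All 3 genes were highest in library 2, and ZP2 alone of them ranked among the 100 most abundant genes. Of the other oocyte markers, KPNA7, a nuclear import receptor of the egg, was at 982 ± 355 FPKM, OOEP, a member of the subcortical maternal complex, at 661 ± 139 FPKM, H1FOO, the oocyte linker histone, at 627 ± 441 FPKM, and UCHL1, a ubiquitin hydrolase, at 217 ± 45.2 FPKM. ZAR1 (14.3 ± 7.08 FPKM) and NLRP5 (10.4 ± 10.5 FPKM), which are both needed by the mouse embryo from its mother, were far lower.

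**Figure D1:**
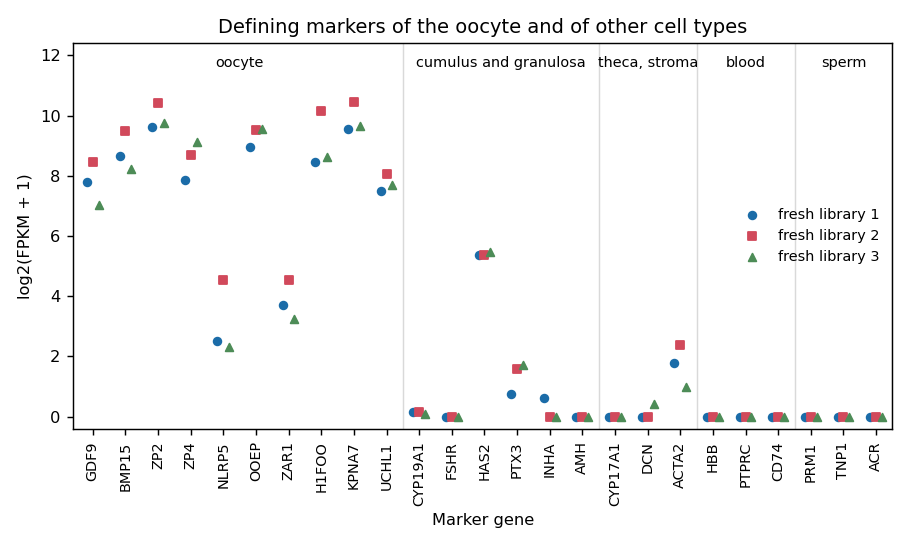
Levels of marker genes, as log2(FPKM + 1), in the 3 fresh libraries (1 point each), with oocyte markers on the left and markers of other cell types on the right. The 10 oocyte markers are above 0 in every library, while HBB, PTPRC, CD74, PRM1, TNP1, ACR, FSHR, AMH and CYP17A1 lie at 0 in all 3.

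Most defining markers of other cells of the ovary were at or near 0, with exceptions among the cumulus and granulosa genes. Of the defining cumulus and granulosa markers, FSHR and AMH had no count in any library (a floor of 3 counts is 1.87, 1.82 and 1.06 CPM, counts scaled to the library total alone, and covers counting error only). CYP19A1, the aromatase, had 1 count in each library, and INHA had 1 count in library 1. HAS2, which makes the hyaluronan of the expanding cumulus, was at 40.3, 40.1 and 43.4 FPKM, and PTX3, which cross-links it, at 0.678, 1.98 and 2.31 FPKM. Of all 24616 genes in the table, 11911 had no count and 7631 (31.0%) reached 1 FPKM in all 3 libraries. That share covers rows of every kind. It was reached by 6335 of 15306 nuclear rows with a symbol, but by only 44 of 3235 structural or small RNA rows. The gene lists here and below hold named genes, so 31.0% is a low bar for them. Of the 38 cumulus and granulosa markers, 13 had no count and 9 (23.7%) reached 1 FPKM in all 3. Their summed share of FPKM was 0.224, 0.533 and 0.243% in libraries 1, 2 and 3, most of it from ID3, an inhibitor of transcription factors, at 2280 ± 1069 FPKM. STAR, which carries cholesterol into mitochondria, was the next highest at 51.3, 104 and 56.1 FPKM. PTGS2, named after its value was seen, was at 24.0, 22.3 and 22.2 FPKM and SERPINE2 at 10.1 ± 5.45 FPKM. Without ID3 the other 37 summed to 0.0195, 0.0319 and 0.0195%. Where such a marker is low, fewer cumulus cells and less RNA per cell cannot be told apart. The 13 theca and stroma markers summed to at most 0.00084% of FPKM in a library, with 7 at 0. The 20 blood and immune markers summed to 0.00634, 0.0128 and 0.00464%, with 14 at 0, and most of it was KIT, which is also the oocyte's receptor for KIT ligand (51.5 ± 23.2 FPKM). Of the 16 sperm and spermatid markers, 10 were at 0, and the highest was ACRV1 at 23.1, 11.5 and 31.1 FPKM. What part RNA of other cells has in the levels below was not tested.

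Of the 24616 genes in the table, 12705 had a count in at least 1 fresh library and 9311 in all 3, while 11911 had none. At a threshold of 1 FPKM, library 1 held 8554 genes, library 2 held 9743 and library 3 held 8422, a mean of 8906 ± 728. All 3 libraries shared 7631 of these genes. Library 2 alone put 1115 genes over the threshold, against 242 for library 1 alone and 235 for library 3 alone. These genes were near the limit of detection, with a median of 8 counts over the 3 libraries for those of library 2. With each library thinned to the depth of library 1, the expected number of genes with a count was 10351, 11405 and 10511 for libraries 1, 2 and 3, so library 2 still had the most genes at matched depth.

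A small number of genes made up a large part of the summed FPKM. Only 8 genes had a mean of 10000 FPKM or more, and they took 21.3% of the mean summed FPKM. A further 83 genes between 1000 and 10000 FPKM took 24.6%, and 996 genes between 100 and 1000 FPKM took 35.9%. The 3454 genes between 10 and 100 FPKM took 15.6%, and the 4600 genes between 1 and 10 FPKM took 2.38%. The most abundant 10 genes held 25.7, 16.6 and 26.9% of the summed FPKM of libraries 1, 2 and 3 (23.1 ± 5.63%), and the most abundant 100 held 51.0, 38.4 and 51.0% (46.8 ± 7.31%). Library 2 was the least concentrated: 217 genes made up 50% of its FPKM, against 90 in library 1 and 89 in library 3. Scaling a library by any constant leaves these shares as they are, but they depend on dividing by gene length. Ranked and summed by CPM, the top 10 genes held 12.8% and the top 100 held 33.3%.

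**Figure D2:**
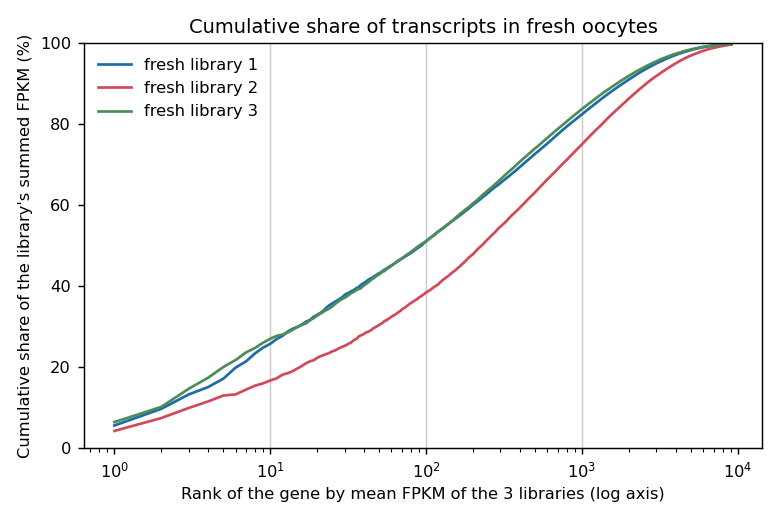
Cumulative share of each library's summed FPKM (y axis, %) taken by genes in the order of their mean FPKM (x axis, log scale), 1 line per fresh library. At 100 genes the lines of libraries 1 and 3 are at 51.0% and that of library 2 is at 38.4%; at 1000 genes they are at 82.4, 83.7 and 75.02%.

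The most abundant transcript was that of a gene with no symbol in the table, described as thymosin beta-4, a small protein that binds actin monomers and keeps them from polymerizing. The gene (ENSBTAG00000038488, chromosome X from 140973702 to 140975767 on UMD3.1) was at 42000, 29074 and 50161 FPKM, and it ranked first in all 3 libraries. It took 2.58% of the counts of library 1 (95% exact interval 2.55 to 2.60%), 1.79% of library 2 (1.76 to 1.81%) and 3.08% of library 3 (3.06 to 3.1%), where the intervals cover counting error only. A further pair of rows described as thymosin beta-4 also ranked in the top 30. They were a second gene on chromosome 1 (ENSBTAG00000005414, 4791 ± 975 FPKM) and TMSB4X on an unplaced scaffold (4103 ± 1582 FPKM). How alike their sequences are was not looked at, and how reads were divided among the 3 rows is not given in the sources used here. Their levels are therefore uncertain one by one. Together the 3 rows held 2.93, 2.05 and 3.50% of the counts.

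Regulators of meiotic division came next. Securin, which holds separase inactive until the chromosomes part (ENSBTAG00000012184, chromosome 7 from 74119595 to 74127285), was at 31557, 22294 and 29767 FPKM. CKS1B (chromosome 3 from 15667485 to 15670986), a small subunit of the cyclin-dependent kinases that drive the cell into M phase, was at 14069, 11371 and 21622 FPKM. Its paralog CKS2 (chromosome 8) was at 7259, 4890 and 7682 FPKM, and CETN3, a centrin, at 10659, 3990 and 10175 FPKM. Each of these 4 genes was lowest in library 2. In the list of meiotic cell cycle genes, 46 of 55 (83.6%) reached 1 FPKM in all 3 libraries, against 31.0% of all genes. Here and below, the 31.0% also counts unnamed and small RNA rows, which the lists do not hold. Of the list, 5 were among the top 100 and 19 among the top 1000, with a median of 44.1 FPKM. Of the 5, securin, CKS1B and CKS2 are given above, and the other two, named after their values were seen, were AURKA, the spindle pole kinase, at 1824, 2259 and 1348 FPKM, and CCNB1, cyclin B1, at 1263, 1258 and 1662 FPKM. MOS, the kinase that holds the mature egg at metaphase II, was at 159, 848 and 193 FPKM and varied most of the named cell cycle genes (CV 97.0%).

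BTG4, an adaptor that brings the CCR4-NOT deadenylase to maternal mRNA during maturation, was the third most abundant gene. It lies on chromosome 15 (22105614 to 22120867) and was at 27169, 17469 and 35623 FPKM (26753 ± 9084). Its partner enzymes stood far lower: CNOT7, a catalytic subunit of CCR4-NOT, was at 416, 353 and 506 FPKM. EIF4E, the cap-binding protein, was at 664, 427 and 1168 FPKM, and EIF4ENIF1, which represses translation at the cap, at 16.5, 61.0 and 16.4 FPKM. CPEB4, which binds the cytoplasmic polyadenylation element, was at 46.0, 14.7 and 11.4 FPKM. Of the 39 genes of mRNA storage and translational control in the table, 32 (82.1%) reached 1 FPKM in all 3 libraries, against 31.0% of all genes. The median of the list was 21.3 FPKM. BTG4 held most of the 3.90, 2.89 and 4.91% of FPKM that this list took.

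Among the genes known for their role in the oocyte and early embryo, oocyte-secreted protein 1 held rank 5 (ENSBTAG00000027348, chromosome 15 from 84427064 to 84434956), at 15803, 10130 and 20891 FPKM. Developmental pluripotency-associated protein 3, which guards maternal DNA methylation after fertilization (ENSBTAG00000046609, chromosome 5), was at 3731, 2793 and 4341 FPKM. It ranked 21 by FPKM and 5 by CPM, which is not scaled by length. Of 25 maternal-effect and oocyte-restricted genes in the table, 22 (88.0%) reached 1 FPKM in all 3 libraries, against 31.0% of all genes. Of the list, 5 were in the top 100 and 11 in the top 1000, with a median of 59.1 FPKM. Beside both of these, BTG4 and KPNA7, the other gene in the top 100 was ACCSL, named after its value was seen, at 1488, 3754 and 1475 FPKM.

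The egg coat and secreted factors were led by genes already given. ZP4, a second zona protein, was at 231, 417 and 555 FPKM, and it was highest in library 3 while ZP2 was highest in library 2. GDF9 and BMP15 were in a list of 7 secreted factors of the ovary, not all of which come from the oocyte. Of the others, KITLG, the ligand of KIT, was at 5.19 ± 2.60 FPKM, and WNT4, FGF8 and NPPC had no count. In the list of the subcortical maternal complex and NLRP genes, 9 of 10 reached 1 FPKM in all 3 libraries, against 31.0% of all genes. The median of the list was 36.9 FPKM. NLRP14 was at 142, 285 and 160 FPKM and DDX25, an RNA helicase, at 69.5, 152 and 120 FPKM. The other members, named after their values were seen, ran from NLRP9 at 72.5 ± 34.8 FPKM through NLRP8 (47.9 ± 40.2), TLE6 (25.9 ± 18), KHDC3L (20.6 ± 19.3) and PADI6 (19.1 ± 12.9) to NLRP13 at 1.66 ± 1.75 FPKM. Oocyte transcription factors were lower, with a median of 6.36 FPKM over 16 genes. STAT3 led them at 155 ± 58.7 FPKM, followed by LHX8 at 42.2 ± 13.1 and YY1 at 42.2 ± 7.36 FPKM.

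The mitochondrial genome, which encodes 13 proteins of the respiratory chain and ATP synthase, supplied 14 of the 100 most abundant genes. Of these 14, 11 were protein genes. ATP6, a subunit of ATP synthase, was at 20963, 2078 and 13835 FPKM, which put it at rank 4, 30 and 7 in libraries 1, 2 and 3. COX3 was at 15345, 6833 and 8905 FPKM, ND1 at 8976, 3738 and 5630 FPKM, and cytb at 8616, 2591 and 4006 FPKM. All 13 of these protein genes were highest in library 1, and 12 of the 13 with TMM scaling (defined below), against 961 of all 4541 genes with a mean of 10 FPKM or more, or 1382 with TMM scaling. The ratio of library 1 to library 2 had a median of 2.63 over these genes, with 1.08 for COX1 as the lowest and 10.1 for ATP6 as the highest. COX1 was the steadiest, at 4530, 4179 and 4212 FPKM (CV 4.49%). ATP6 (bases 8290 to 8970) overlaps ATP8 (8129 to 8329) and COX3 (8970 to 9750) at its ends. How fragments that touch these few shared bases were assigned is not given, and their part in the ratios above was not tested. The 37 mitochondrial genes together took 13.3, 6.33 and 7.54% of FPKM and 8.66, 4.14 and 5.12% of counts. The table gives neither symbol nor description to a pair of abundant mitochondrial genes, which are not among the 13 protein genes. They lie at bases 431 to 1385 and 1453 to 3023, before ND1, which starts at 3101. ENSBTAG00000043567 was at 6030, 6411 and 2808 FPKM, highest in library 2, and ENSBTAG00000043570 at 5162, 4766 and 2829 FPKM, highest in library 1. Both were lowest in library 3, as were 3 of the 13 protein genes (ND3, ND5 and ND6).

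The remaining nuclear genes of the top 30 had varied roles. CALM2, calmodulin, was at 3514, 4070 and 4594 FPKM on chromosome 10, and a second row of that symbol on chromosome 20 was at 2791, 949 and 2265 FPKM. SUMO2, a ubiquitin-like modifier, was at 2993, 2368 and 3468 FPKM. POLR2J, a subunit of RNA polymerase II, was at 2694, 2431 and 3869 FPKM, and ENY2, a factor of mRNA export and chromatin, at 3039, 1783 and 3058 FPKM. YPEL5 was at 3022, 2641 and 3824 FPKM. The seventh most abundant gene, ENSBTAG00000046117 on chromosome 11 (63290422 to 63395507), has neither symbol nor description and was at 11755, 8320 and 14784 FPKM. It is not alone: of the 86 nuclear genes in the top 100, 17 had no name in the table, and a further 13 had a description but no symbol. These 17 nuclear genes held 5.92% of the mean summed FPKM and the 13 with a description 13.6%.

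**Figure D3:**
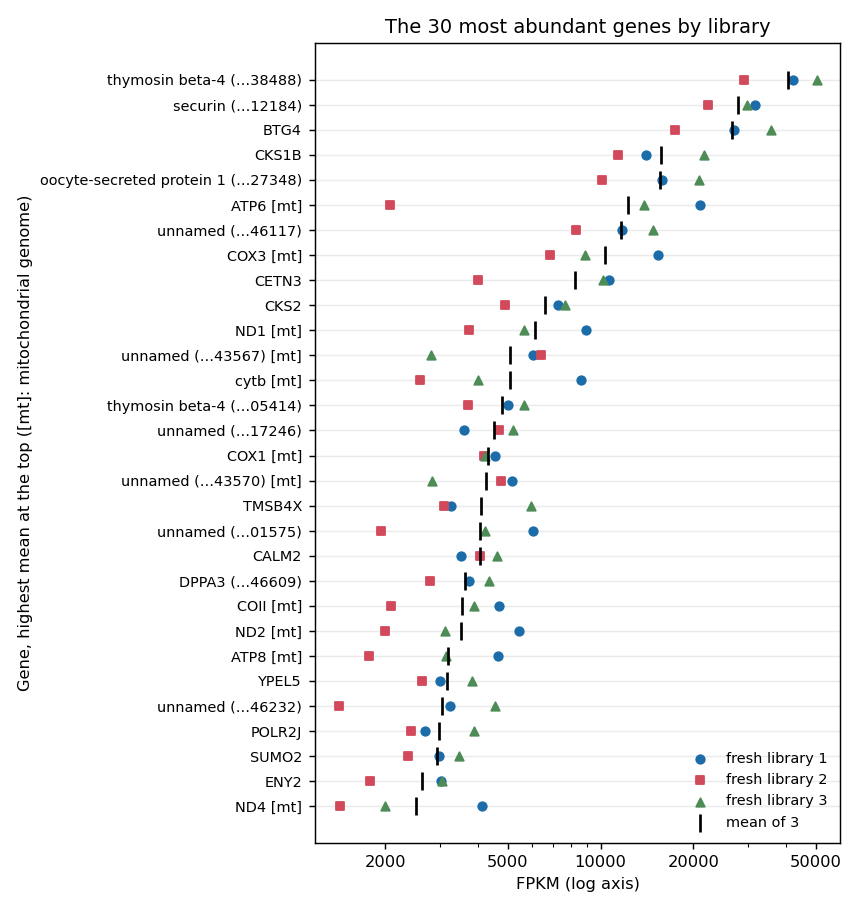
FPKM (log axis) of the 30 genes with the highest mean, 1 symbol per fresh library and a bar for the mean, in order of the mean. Library 2 lies lowest for the leading genes, and ATP6 has the widest gap, with 2078 FPKM in library 2 against 20963 and 13835.

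The most abundant genes were short. The median length was 902 bases in the top 100 and 1896 bases in the 7631 genes at 1 FPKM in all libraries, and 58 of the top 100 were under 1000 bases. Over those 7631 genes, length and level had a Spearman rho of -0.20, a description across genes of the same libraries. FPKM divides by length, so the order depends on that step: 66 of the top 100 were also in the top 100 by CPM, whose median length was 1520.5 bases. Thymosin beta-4, securin and BTG4 held ranks 1 to 3 on both scales. TMSB4X (135 bases) went from rank 18 to 316, ATP8 from 24 to 251 and CKS1B from 4 to 14. By chromosome, 14 of the top 100 lay on the mitochondrial genome, which holds 0.485% of the 7631 genes. Chromosomes 11, 3 and 10 held 7, 6 and 6 of them, near their shares of 4.51, 5.96 and 5.41% of the 7631. The spans of 16 of the 100 overlapped another gene of the table, and in 14 the other gene reached a mean of 1 FPKM.

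Genes of protein synthesis and turnover were widely present. Of 62 cytosolic ribosomal protein genes in the table, 56 (90.3%) reached 1 FPKM in all 3 libraries, against 31.0% of all genes. Yet 1, RPS27A, was in the top 100 (1154 ± 80.2 FPKM, CV 6.95%) and the median was 49.2 FPKM. Many ribosomal protein genes have near-identical copies, so single levels such as those of RPLP0 (230, 603 and 346 FPKM) and RPSA (147, 490 and 328 FPKM) are uncertain. Among 32 translation factors, EIF3E was at 1114 ± 296 and EIF4A1 at 940 ± 172 FPKM. All 44 genes of ubiquitin and the proteasome reached 1 FPKM in all 3 libraries, against 31.0% of all genes. They were led by PSMA5, a subunit of the 20S core, at 1830, 1275 and 2889 FPKM and PSMA7 at 1039, 1231 and 1084 FPKM.

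The lists of energy genes differed in level. Of 66 nuclear genes of oxidative phosphorylation, 63 (95.5%) reached 1 FPKM in all 3 libraries, against 31.0% of all genes. The list had a median of 34.0 FPKM and held 1.23, 1.18 and 1.19% of FPKM. ATP5J, a subunit of ATP synthase, led it at 2099, 1154 and 1738 FPKM, and NDUFB6, of complex I, followed at 997, 816 and 1002 FPKM. Of 37 genes of glycolysis and the citrate cycle, 22 (59.5%) reached 1 FPKM in all 3 libraries, against 31.0% of all genes. The median was 3.69 FPKM. This list also holds pentose phosphate genes, and its pathways were not summarized one by one. The highest genes of the list were citrate cycle enzymes: CS, citrate synthase, at 385, 417 and 842 FPKM and FH, fumarase, at 99.4, 141 and 128 FPKM. In the pentose phosphate pathway, PGD was at 52.9, 154 and 67.4 FPKM. GPI, an early enzyme of glycolysis named as the most variable of the list (CV 84.3%), was at 10.8, 34.4 and 7.33 FPKM. Another glycolytic gene, the row described as glyceraldehyde-3-phosphate dehydrogenase, had a higher mean of 38.9 FPKM. Lipid metabolism was also low as a list (median 1.27 FPKM over 44 genes), with FABP3, a fatty acid carrier, at 751 ± 151 FPKM.

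Genes of antioxidant defence, protein folding and chromatin were each led by a gene in the top 1000. GSTM3, a glutathione transferase, was at 1134, 695 and 2278 FPKM, PRDX1, a peroxiredoxin, at 542, 942 and 503 FPKM, and superoxide dismutase [Cu-Zn] (ENSBTAG00000018854) at 640, 563 and 707 FPKM. Of 35 chaperone genes, 29 (82.9%) reached 1 FPKM in all 3 libraries, against 31.0% of all genes. They were led by HSPE1 (826 ± 75.3 FPKM) and HSP90B1 (695 ± 73.4 FPKM). Histone and chromatin genes had a median of 121 FPKM over 30 genes, above that of every other list but the mitochondrially encoded proteins and the 2 zona genes. HMGN2, a nucleosome-binding protein, was at 1298 ± 125 FPKM, the oocyte-specific histone RNA stem-loop-binding protein (ENSBTAG00000048053) at 879 ± 155 FPKM and histone H3.3 (ENSBTAG00000024561) at 811 ± 54.4 FPKM. UHRF1 (454 ± 112 FPKM), which reads newly copied DNA for methylation, stood above DNMT1 (119 ± 26.0 FPKM), the maintenance methyltransferase, with no overlap between their libraries.

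The lists of meiotic prophase, calcium handling, retrotransposon control, embryonic genome activation and immediate early genes held no gene of the top 100 other than CALM2 and RGS2, both in the calcium list. Of 18 genes of meiotic prophase, 10 (55.6%) reached 1 FPKM in all 3 libraries, against 31.0% of all genes. SYCP3, of the synaptonemal complex, was at 653, 319 and 534 FPKM and TEX12 at 252, 233 and 307 FPKM, while SPO11, DMC1, STRA8, MEIOB and PRDM9 had no count. In the calcium list, ATP2A2, the calcium pump of the endoplasmic reticulum, was at 167 ± 22.6 FPKM and RGS2, a brake on G protein signalling, at 992 ± 227 FPKM. Among 22 genes of retrotransposon control, MAEL was at 371 ± 67.7, HENMT1 at 179 ± 51.0 and GTSF1 at 115 ± 25.8 FPKM. Of 13 genes known from embryonic genome activation, 7 had no count, ZSCAN4 and DPPA2 among them, and 4 (30.8%) reached 1 FPKM in all 3 libraries. Both are near the values over all genes, where 11911 of 24616 had no count and 31.0% reached 1 FPKM in all 3. Of nuclear rows with a symbol, a larger share did (6335 of 15306). EIF1AX (199 ± 38.8 FPKM) and LEUTX (43.0 ± 8.26 FPKM) were the highest of that list. Immediate early genes had a median of 1.31 FPKM over 21 genes, with GADD45A highest at 64.5, 105 and 33.6 FPKM.

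The membership of the top of the ranking held between libraries, while its order did not. Of the 30 genes with the highest mean, 21 were in the top 30 of every library, and of the top 100, 72 were in the top 100 of every library. Of the 29 pairs of neighbours in the top 30, 2 kept their order in all 3 libraries: thymosin beta-4 over securin, and BTG4 over CKS1B. Securin and BTG4, ranked 2 and 3, changed places in library 3, and CKS1B and oocyte-secreted protein 1 did not differ beyond their spread (15687 ± 5314 and 15608 ± 5383 FPKM). Libraries 1 and 3 shared 85 of their own top 100 genes, and library 2 shared 77 with each of them.

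The median spread between libraries was larger than counting error in every class of level. Over the 9141 genes with a mean of 1 FPKM or more, the median CV was 34.6%, against 16.9% that Poisson counting error alone would give for the same counts. In the 4541 genes with a mean of 10 FPKM or more it was 25.9% against 8.74%, and 91.4% of these genes had a CV above their counting error. Among genes of 1 FPKM or more, the ratio of observed CV to counting error was largest at the top, where the 8 genes over 10000 FPKM had a median CV of 33.9% against 0.71%. The common biological coefficient of variation, edgeR's estimate of the spread beyond counting error, was 0.286 over 5819 genes after TMM scaling (trimmed mean of M-values), which centres libraries on the bulk of their genes. It was 0.228 without library 2.

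**Figure D4:**
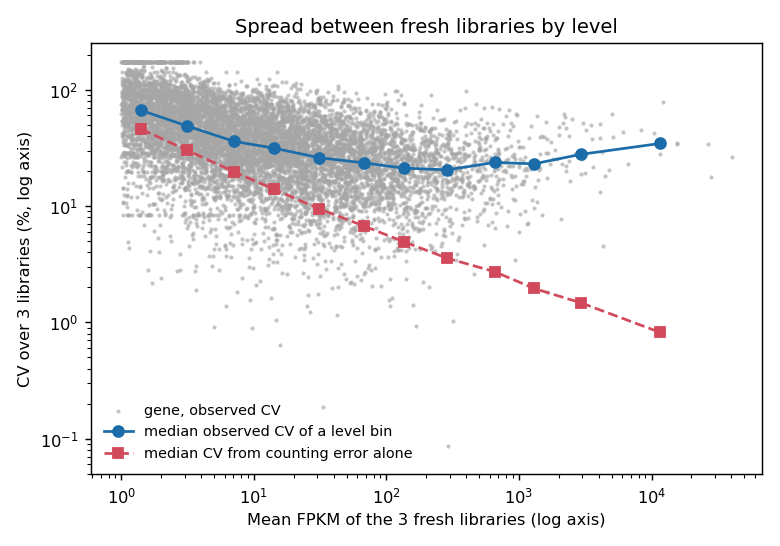
CV over the 3 fresh libraries (y axis, %, log scale) against mean FPKM (x axis, log scale) for genes with a mean of 1 FPKM or more (grey points), with the median of level bins (blue) and the median expected from counting error (red). The 2 lines part as levels go up: in genes of 100 to 1000 FPKM the median CV was 21.2% and counting error 4.12%.

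Across genes with a mean of 1 FPKM or more, Pearson's r of log2(FPKM + 1) was 0.93 for libraries 1 and 2, 0.96 for 1 and 3 and 0.94 for 2 and 3. These describe gene levels that share length and base composition between libraries and are no test. Among genes with a mean of 10 FPKM or more, 92.8% were within 2-fold between libraries 1 and 3, 82.7% between 1 and 2 and 79.4% between 2 and 3. Counts of no pair agreed within sampling noise (chi-square per degree of freedom 23.8 to 50.9), so none is a copy of another.

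The way library 2 differed depended on level. Among 1937 genes with a mean of 10 to 30 FPKM, its median log2 ratio to the mean of the other 2 libraries was 0.45, and among the 26 genes at 3000 FPKM or more it was -0.67. Library 3 went the other way, from -0.39 to 0.30 over the same classes. Library 1 stayed between -0.19 and 0.17. TMM scaling shifts each library by a constant, with factors of 0.938, 1.22 and 0.872 for libraries 1, 2 and 3. It brought library 2 from 0.45 to 0.03 at 10 to 30 FPKM and from -0.47 to -0.91 at 1000 FPKM or more, so the slope across levels remained and the zero point moved. In the 86 nuclear genes of the top 100, library 2 was lowest for 52 and library 3 highest for 52. Of all 4541 genes at 10 FPKM or more, library 2 was lowest for 924 and library 3 highest for 1047, or 1807 with TMM scaling. What moved these levels was not tested; library 2 also had the most genes with a count and the lowest mitochondrial share.

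**Figure D5:**
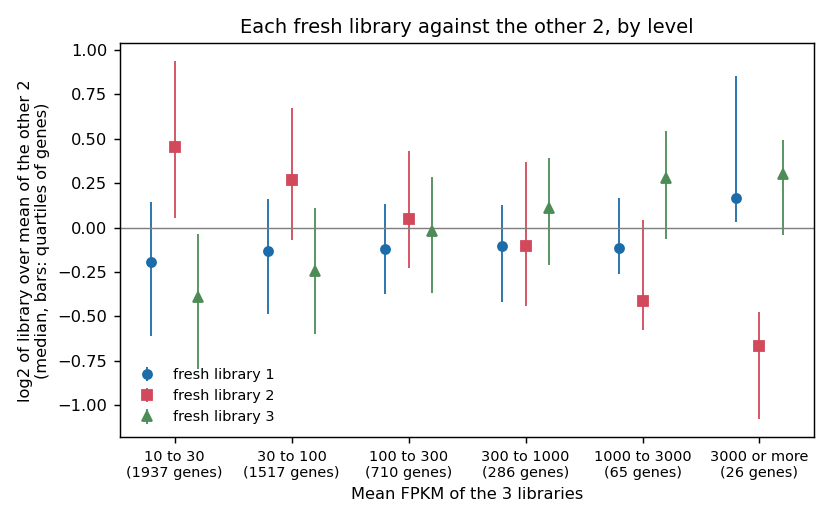
Median log2 ratio of each fresh library to the mean of the other 2 (y axis, bars: quartiles over genes) in 6 classes of mean FPKM (x axis). Library 2 goes from 0.45 in the lowest class to -0.67 in the highest, and library 3 from -0.39 to 0.30.

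Large differences of 1 library were mostly those of library 2. Of the 4541 genes with a mean of 10 FPKM or more, 445 (9.8%) were more than 2-fold higher in library 2 than in both others, and 28 (0.617%) more than 2-fold lower. Library 1 stood 2-fold above in 23 genes (0.506%) and below in 75 (1.65%), and library 3 above in 15 (0.33%) and below in 99 (2.18%). The mean that admits a gene includes the library in question. A low gene raised in 1 library therefore passes more readily than one lowered in it, and the numbers above and below are not on equal terms. With TMM scaling the counts became 182 above and 137 below for library 2, 45 above and 64 below for library 1, and 48 above and 39 below for library 3, so the balance of library 3 turned. The members of 2 lists at a mean of 10 FPKM or more were counted in the same way. Over 2-fold higher in library 2 were 6 of 9 in the subcortical maternal complex and NLRP list, and 8 of 21 in the maternal-effect list. That mean includes library 2, so a member can pass it through library 2 alone, and these counts are no independent support. Highest in library 2 were 8 of 9 and 15 of 21 members, or 7 of 9 and 13 of 21 with TMM scaling. Of all 4541 genes, 2533 were highest there, or 1352 with TMM scaling. Without TMM scaling this share depended on level: it was 65.7% of the 1937 genes at 10 to 30 FPKM. The lists were not matched to all genes by level. Single examples were TCL1B at 15.9, 101 and 26.8 FPKM and HIST1H1E, a linker histone, at 34.2, 253 and 74.4 FPKM. NLRP5 was at 4.76, 22.5 and 4.0 FPKM, and ASTL, the egg's ovastacin protease, at 5.53, 25.3 and 5.96 FPKM. Both were below 10 FPKM in libraries 1 and 3, so they passed the filter only through library 2. Ribosomal protein genes depended on the scaling: 37 of 51 were highest in library 2, but 18 of 51 with TMM scaling.

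Among well-counted genes (a mean of 100 counts or more), the largest single-library differences were in library 2. There, TMED9, a protein of the secretory pathway, was 4.66-fold above the nearer of the others, MOS 4.39-fold and PLK3, a polo-like kinase, 4.04-fold. CRH, corticotropin-releasing hormone, was at 40.6, 203 and 50.7 FPKM. ATP6 was 6.66-fold below the nearer library, DCTN6, a dynactin subunit, 4.93-fold (136, 27.7 and 142 FPKM) and LRP8 3.20-fold. The span of LRP8 (15.6 ± 10.4 FPKM) overlaps that of MAGOH (2385 ± 952 FPKM), and no source says if the strand was used in counting, so reads of both cannot be told apart. In library 1, CPEB4 was 3.12-fold above the nearer of the others, and the next 4 were the mitochondrial genes ND5 (2.89-fold), ND3 (2.38-fold), ND6 (2.27-fold) and ND4L (2.25-fold). IAH1 was 3.23-fold below. In library 3, UBL5, citrate synthase (CS) and GSTM3 were 2.07, 2.02 and 2.01-fold above, and ALDH1A1, a retinaldehyde dehydrogenase, was 4.01-fold below (63.8, 51.2 and 12.8 FPKM).

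Some genes had almost the same level in all libraries. AP1S2, of a clathrin adaptor, was at 289 FPKM in each (CV 0.0859%), TEFM at 33.2, 33.1 and 33.1 FPKM (CV 0.189%) and KIF23, a kinesin of the midbody, at 315, 312 and 319 FPKM (CV 1.03%). Counting error alone gives CVs of 5.51, 10.2 and 2.23% for these 3 genes, so they are the low end of 2402 well-counted genes and not steadier than their counts can show. The usual reference genes varied as other genes do, with a median CV of 29.9% in the 9 at 10 FPKM or more. B2M was at 1102, 827 and 914 FPKM, PPIA at 433, 756 and 491 FPKM, ACTG1 at 62.3, 162 and 72.0 FPKM, and the row described as glyceraldehyde-3-phosphate dehydrogenase (ENSBTAG00000014731) at 24.8, 66.8 and 25.2 FPKM. The symbol GAPDH stands on another row, with no count in any of the 3 libraries, and the described row was used in its place. Of these 4, B2M was lowest in library 2 and the others highest there.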

How the data were processed

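RNA sequencing of 3 fresh oocyte libraries was read from 1 table of the series. The authors deposited whole-number counts per gene and library beside FPKM, per the file headers. Both columns hold 1 measurement, since dividing counts by the library total and by 1 length per gene gave the FPKM (lengths so implied differed between libraries by at most 0.0529%). HISAT2 2.0.4, StringTie 1.3.0 and the build UMD3.1 are named in the submitters' processing notes with no role or order. How reads were filtered, stranded or shared between copies is not given in the sources used here. The low-input amplification keeps no molecule count.

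Genes were ranked by mean FPKM. CPM, CV and Poisson CV were computed from the same columns in Python 3.11.15 with numpy 2.4.6. TMM factors and the common biological coefficient of variation came from edgeR 4.0.16 in R 4.3.3 with an intercept-only fit, which was tested on simulated data. Intervals are 95% exact Clopper-Pearson intervals.

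There were 29 gene lists with 939 symbols in all. The table held 795 of these, 39 found by its own description of the gene. These matches were added after the table was seen. Where a symbol had several rows, the row with the highest mean FPKM was used, which can raise the detected share of a list. Members and lists were chosen with earlier results of these data known. Genes were named by rule: the 30 highest by FPKM and 10 highest by CPM, the 3 highest and the most variable of each list, the 10 most and 10 least variable well-counted genes, 5 in each direction per library, and the markers. Not all are printed. The vitrified groups were not used, and no sequence of this build was used here.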

Additional observations from a re-analysis of the deposited data

How the results depend on the processing

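No paired analysis was possible because only 1 group was described. Of 94 alternatives to 25 results, 67 stayed within their margin, 26 moved and 1 reversed. With a threshold of 10 FPKM in place of 1 FPKM, 3831 genes passed in all 3 libraries and 4468 per library. Ranked by CPM, the top 100 genes held 33.3% and the top 10 held 12.8%. The median CV was 25.9% in genes with a mean of 10 FPKM or more and 47.0% with no filter other than a count. Leaving out 1 library at a time gave a median CV of 21.5 to 36.5% and a common biological coefficient of variation of 0.228 to 0.320, the lowest in both cases without library 2. With TMM scaling the median CV was 31.2%. Without mitochondrial genes, the median log2 ratio of library 1 to the others at 1000 FPKM or more turned from 0.03 to -0.085. The number of genes at 1 FPKM in all libraries left in the comparison ran from 7751 to 8192 when 1 library was left out, and the top 100 share from 44.7 to 51.2%. Requiring a mean of 100 counts or more lowered the number of genes over 2-fold higher in library 2 from 445 to 156. That filter also removes many of the 4541 genes looked at (2402 genes with a symbol pass it). The 445 and 156 are therefore not shares of the same set. Depth limits the low end: genes of 1 to 10 FPKM had a counting error of 30.4% (median CV) beside an observed 48.7%, against 4.12% beside 21.2% at 100 to 1000 FPKM.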
